A study of Saccharomyces cerevisiae with 12 samples.

Results

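The ribosomal DNA (rDNA) repeat genes of budding yeast were followed here as read signal from genome resequencing of ageing mother cells. The deposited table gives a normalised read signal for windows of 25 kb placed every 5 kb along the genome. The rDNA was taken as every window of chromosome XII with a start at or under position 490000 and an end over 450000, which gave 12 of the 2441 windows of the table, 2423 of them nuclear. Of these 12 windows, 8 touch the 2 rDNA units that the reference genome holds, with the genes RDN37-1, RDN37-2, RDN5-1 and RDN5-2, and are called unit windows below. The other 4 windows start after position 470000 and hold further 5S copies to the right of the units.

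The strains were MEP (mother enrichment program) diploids lacking SPT3, RAD52 or SAC3, with both copies replaced by a TRP1 marker, and the wild type without that marker. All strains, wild type included, carried ade2, his3, leu2, ura3 and trp1 alleles together with SCW11pr-Cre-EBD78, loxP-UBC9 and loxP-CDC20. In this system a Cre recombinase driven by the daughter-specific SCW11 promoter and switched on by β-estradiol stops daughters from dividing. Biotin-labelled mothers can thus be recovered after a known time in culture. Each of the 4 genotypes was grown in YPD and gave 1 log phase library and 1 each after 24 h and 48 h in culture. These are 12 libraries in all, so no value below has a replicate. Below, age means time in culture, which is not the same replicative age in each genotype. According to the paper, sac3 cells aged more slowly than wild type. It reports rad52 cells as younger than wild type at 24 h, with no rise in the age marker by 48 h. The TRP1 marker and the deletion cannot be told apart, nor, for rad52 and sac3 against wild type, can the later addition of β-estradiol and the deletion, while spt3 and wild-type cultures received it at the same time. Log phase cells were taken from the growing culture before β-estradiol and without biotin labelling. Aged cells had been labelled, given β-estradiol and recovered on beads. Age and these steps cannot be told apart in any ratio to log phase. Each library pools many cells, and more rDNA in every cell cannot be told apart from much more rDNA in some of them, nor copies in the array from copies on circles.

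The rDNA of yeast is a tandem array on chromosome XII in which each unit carries a long precursor gene (RDN37) read by RNA polymerase I, which gives the 18S, 5.8S and 25S rRNAs, and a 5S gene read by RNA polymerase III from the spacer between the precursor genes. A replication fork barrier and an origin lie in the same spacer. Recombination between repeats can release extrachromosomal rDNA circles (ERCs), which replicate from their own origin and are retained by the mother at division. Spt3 is a subunit of the SAGA coactivator and Sac3 the scaffold of the TREX-2 mRNA export complex, both linked to the attachment of circles to nuclear pores, and Rad52 is a central protein of homologous recombination.

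On the R64 assembly RDN37-1 covers chrXII:451575-458432 on the minus strand and RDN37-2 covers chrXII:460712-467569 on the same strand. RDN5-1 lies at chrXII:459676-459796 and RDN5-2 at chrXII:468813-468931, both on the plus strand. One unit, counted between the left ends of RDN37-1 and RDN37-2, is 9137 bp long, and both reference units together span 17357 bp because RDN5-2 closes the second without a further spacer. Its GC content is 43.8%, against 38.3% for the nuclear genome. Since the reference holds 2 units in place of the whole array, rDNA reads of a cell fall on this short span, apart from some identical to copies on its right. The height of the signal there thus measures how many units the cells hold.

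The 5S genes are shown because they tell which reads can leave the unit windows. The RefSeq sequences of the R64 assembly were compared, with capitals marking a base that differs from RDN5-1 in the alignment of each copy.
RDN5-1: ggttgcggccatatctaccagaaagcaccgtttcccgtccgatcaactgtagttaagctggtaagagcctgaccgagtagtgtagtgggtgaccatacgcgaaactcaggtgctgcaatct
RDN5-2: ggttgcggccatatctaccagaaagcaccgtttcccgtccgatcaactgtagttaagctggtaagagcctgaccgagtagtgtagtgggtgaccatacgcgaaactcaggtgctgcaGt
RDN5-6: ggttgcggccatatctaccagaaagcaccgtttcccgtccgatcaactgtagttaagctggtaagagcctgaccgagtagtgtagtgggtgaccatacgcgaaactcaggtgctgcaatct
RDN5-6, at chrXII:489349-489469 and so outside the reference units, has the 121 bases of RDN5-1 without a change. RDN5-2 has 119 bases and parts from RDN5-1 at position 118, with 1 mismatch and 2 gap bases, and RDN5-3, RDN5-4 and RDN5-5 are identical to RDN5-2.

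Beyond the 5S copies, the right side of the region holds a piece of 25S sequence. A search of the whole reference for 75-base reads identical to a stretch of the unit found 17438 start positions on the units themselves. To their right it found 45 each at RDN5-3, RDN5-4 and RDN5-5, 51 at RDN5-6, 9 in a short piece at the end of the precursor gene and 452 in a run within RDN25-1, and none elsewhere in the genome. The last run covers 526 bases, chrXII:489917-490442 on R64, overlapping the end of YLR162W and the start of RRT15, and repeats the bases of RDN25-1 at chrXII:451949-452474. Its left edge is shown with the bases shared with the unit in capitals, 100 of them after 20 bases that lead up to them.
chrXII:489897-490016: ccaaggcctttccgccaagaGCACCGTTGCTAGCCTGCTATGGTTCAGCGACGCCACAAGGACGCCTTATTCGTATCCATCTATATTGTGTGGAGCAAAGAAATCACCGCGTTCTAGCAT
The windows that start after 470000 therefore hold more than isolated 5S copies. All 4 of them, and the next window to the right, contain this 25S stretch in full or in part.

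The origin of the unit, ARS1200-1 at chrXII:458991-459097 in the spacer NTS2, is shown because it travels with every excised unit. Its copy in the second reference unit, ARS1200-2 at chrXII:468128-468234, is identical over the 107 bases.
ARS1200-1: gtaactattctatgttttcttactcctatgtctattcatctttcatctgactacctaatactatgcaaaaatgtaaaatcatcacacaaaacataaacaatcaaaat

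Depth ran between 5261601 and 12147987 reads per library over windows without overlap, as estimated from the step between the values of a library. A median window outside chromosome XII held between 7328 and 21338 reads (counting error between 0.685% and 1.17%), and the window with both units held 476012 to 7086794 reads. Windows this wide give only a weak check of the deletions. At log phase, windows holding SAC3, which takes 15.6% of a window, had a median of 0.866 of the wild-type signal in sac3 cells, those holding RAD52 had 0.958 in rad52 cells and those holding SPT3 had 0.940 in spt3 cells. In the aged libraries the same medians were 0.865 and 0.842 in sac3 cells, but 1.01 and 1.03 in rad52 cells and 1.04 and 1.01 in spt3 cells, so the deletions of RAD52 and SPT3 were not resolved there.

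At log phase the 4 genotypes differed in rDNA dose. The window that holds both units whole and no further 5S copy, chrXII:445001-470000, had a signal of 730543 in spt3 cells, 969851 in rad52 cells, 567944 in sac3 cells and 853214 in wild type. After subtraction of the single-copy sequence in the window, and with the median nuclear window outside chromosome XII as the signal of single-copy DNA, this corresponds to 158 units per haploid genome in spt3 cells, 211 in rad52 cells, 123 in sac3 cells and 185 in wild type. The sac3 strain thus had the fewest units and rad52 cells the most. The median ratio to wild type over the 8 unit windows was 0.857 in spt3 cells (0.855 to 0.873), 1.13 in rad52 cells (1.12 to 1.14) and 0.669 in sac3 cells (0.666 to 0.692). Among the 2411 nuclear windows outside the rDNA, 6 were at or below the highest of the unit window ratios in spt3 cells, 1 was at or above the lowest in rad52 cells and none was as low in sac3 cells. These are single strains, and the spread of array size between cultures of a genotype was not measured.

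With age the number of rDNA units in the mutants stayed below 1.5 times its log phase level at both times, whereas that of wild type increased many-fold. At log phase, 24 h and 48 h spt3 cells held 158, 206 and 212 units, rad52 cells 211, 312 and 299.9 and sac3 cells 123, 159 and 147. Wild type held 185 units at log phase, had 1298 by 24 h and reached 2645 by 48 h. The dose in wild type at 48 h corresponds to 24.2 Mb of rDNA per haploid genome, against 1.69 Mb at log phase. All mutant libraries lie in a band between 123 and 312 units, which also contains the log phase library of wild type and neither of its aged libraries.

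The rDNA reached a large part of all nuclear reads in aged wild type only. Of the reads in a set of nuclear windows without overlap, the window with both units took between 8.47%, in sac3 cells at log phase, and 18.1%, in rad52 cells at 24 h, in the mutants. In wild type it took 12.1% at log phase, with 47.4% by 24 h and 63.8% by 48 h. The 95% Wilson intervals, which cover counting error only, were narrow beside these differences, for example 63.80% to 63.85% in wild type at 48 h and 12.07% to 12.11% at log phase.

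**Figure D1:**
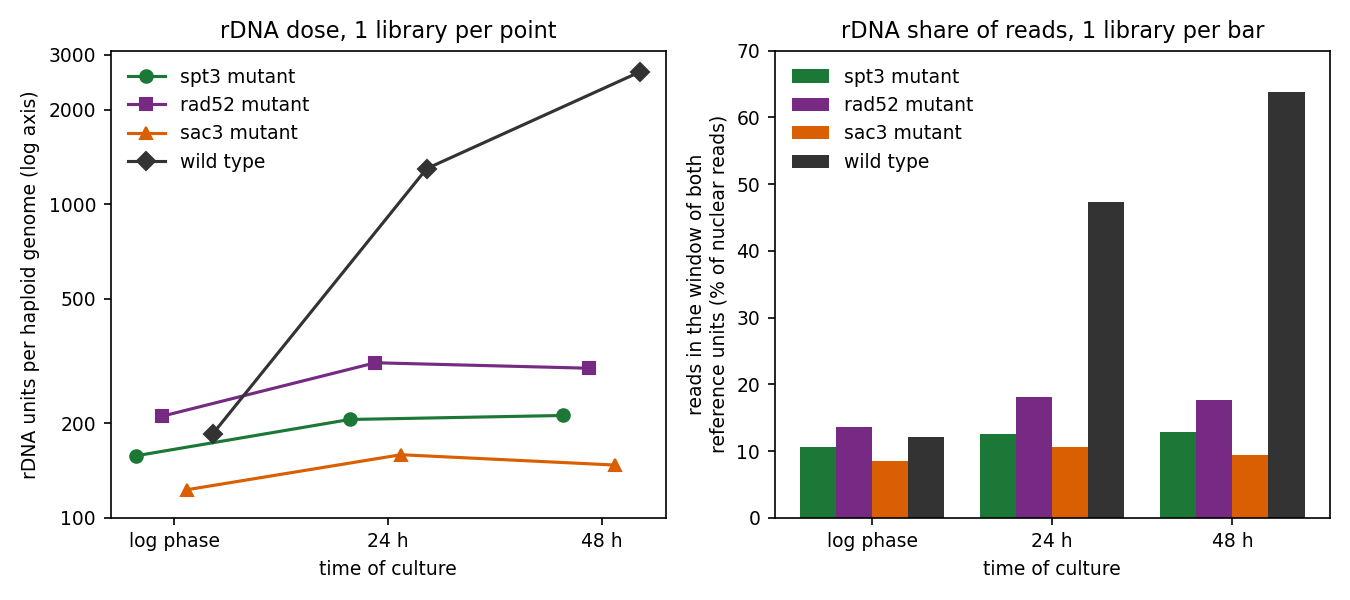
Left, rDNA units per haploid genome (log axis) at log phase, 24 h and 48 h in spt3, rad52 and sac3 cells and wild type, 1 library per point, with lines joining the libraries of a genotype. Right, the share of nuclear reads in the window of both reference units, 1 library per bar. The wild-type points at 24 h and 48 h, 1298 and 2645 units, lie above all 9 mutant points, of which the highest is 312 units.

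The gain in units differed by more than an order of magnitude. By 48 h spt3 cells had gained 54.4 units, rad52 cells 89.2 and sac3 cells 24.4, while wild type had gained 2460. The mutant gains were therefore 2.21%, 3.63% and 0.991% of the wild-type gain, in the order spt3, rad52 and sac3. Between 24 h and 48 h the number of units changed by 6.17 in spt3 cells, by -12.3 in rad52 cells and by -11.6 in sac3 cells, against a further gain of 1347 in wild type.

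The ratio of each aged library to the log phase library of its genotype was nearly level across the 8 unit windows. In spt3 cells its median was 1.28 at 24 h (1.270 to 1.296) and 1.32 at 48 h (1.31 to 1.36). In rad52 cells it was 1.47 (1.47 to 1.48) and 1.41 (1.40 to 1.42), and in sac3 cells 1.31 (1.27 to 1.33) and 1.1996 (1.19 to 1.23). In wild type it was 6.80 at 24 h (6.44 to 6.88) and 13.8 at 48 h (13.07 to 13.96). The windows overlap by up to 20 kb and share the same reads, so this agreement does not count as repeated measurement.

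A ratio of at least 1.2 was passed by all 8 unit windows in every aged library except that of sac3 cells at 48 h, where 3 of 8 passed. All 4 windows starting after 470000 passed it in all 8 libraries. Over all nuclear windows the share at or above this ratio was 14.9% in spt3 cells at 24 h and 14.1% at 48 h, 7.72% and 5.37% in rad52 cells, 1.03% and 13.7% in sac3 cells, and 8.58% and 13.7% in wild type. Of the 2411 nuclear windows outside the rDNA, 255 in spt3 cells, 28 in rad52 cells and none in sac3 cells were at or above the lowest unit window ratio at 24 h, and 196, 82 and 338 in the same order at 48 h. In wild type none reached it at either time, and the highest was 3.87 at 24 h and 7.12 at 48 h, in the window just to the right that holds the 25S stretch.

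The limits of the region were sharp in wild type. Just inside, the window chrXII:430001-455000 had a ratio to log phase of 13.3 at 48 h, and just outside on the left, chrXII:425001-450000 had 1.37. On the right, chrXII:485001-510000 inside had 7.48 and chrXII:490001-515000 outside had 7.12, while the next window, chrXII:495001-520000, which holds no 75-base sequence of the unit, had 1.38. The right limit of the rule thus does not coincide with the end of sequence shared with the unit.

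**Figure D2:**
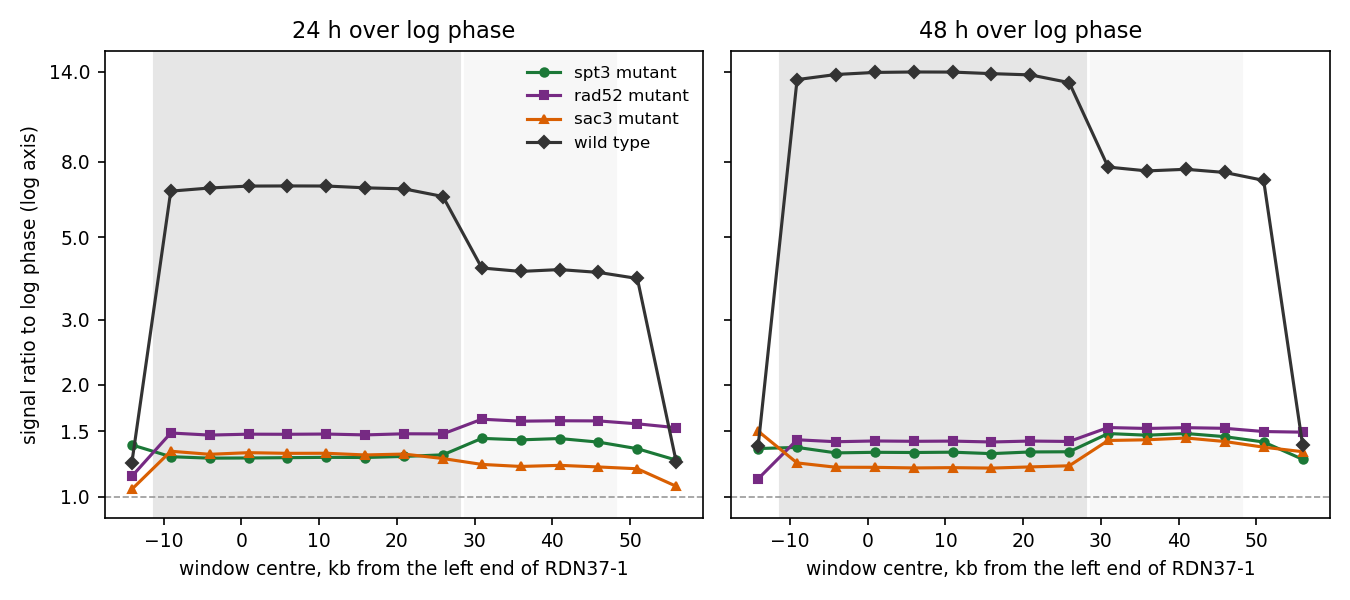
Ratio of the signal at 24 h (left) and 48 h (right) to log phase (log axis) for the 12 windows of the rDNA and the adjoining windows on each side, by the distance of the window centre from the left end of RDN37-1 in kb. Dark shading marks the 8 unit windows and light shading the 4 windows starting after position 470000. No mutant exceeds 1.62 at any of the windows, while the wild-type curve at 48 h lies between 13.07 and 13.96 over the unit windows and between 7.48 and 7.74 over the 4 windows to their right.

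The ratios of the sequence beside the array differed between the mutants and between its sides. The left flank window, chrXII:425001-450000, had ratios to log phase of 1.38 at 24 h and 1.35 at 48 h in spt3 cells, both above the unit window medians of 1.28 and 1.32. In rad52 cells it had 1.13 and 1.12, below the unit windows at 1.47 and 1.41, and in sac3 cells 1.05 and 1.501, against unit window medians of 1.31 and 1.1996. In wild type it had 1.24 and 1.37. The right flank window, chrXII:495001-520000, had 1.25 and 1.26 in spt3 cells, 1.53 and 1.49 in rad52 cells, 1.07 and 1.32 in sac3 cells, and 1.24 and 1.38 in wild type. Over 117 windows of the right arm of chromosome XII the medians at 24 h and 48 h were 1.41 and 1.43 in rad52 cells, 1.06 and 1.09 in spt3 cells, 1.03 and 1.05 in sac3 cells and 1.11 and 1.23 in wild type. Over the 86 windows of the left arm the medians were 0.943 and 0.985 in spt3 cells, 1.02 and 1.04 in rad52 cells, 0.9995 and 1.00 in sac3 cells, and 1.02 and 1.03 in wild type.

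The scale chosen for single-copy DNA accordingly decided the direction in 2 of the 3 mutants. With the 10 left-arm windows nearest to the rDNA, chrXII:380001-450000, in place of the median window outside chromosome XII, units at 24 h and 48 h were 0.898 and 0.9504 of log phase in spt3 cells and 1.24 and 0.782 in sac3 cells, where the main scale had given 1.31 and 1.34, and 1.29 and 1.198. In rad52 cells the same change gave 1.26 and 1.23 in place of 1.48 and 1.42. Wild type kept a large ratio on either scale, 5.49 and 9.97 with the left-arm windows and 7.001 and 14.3 with the main one. At log phase these 10 windows already stood above the rest of the genome, with a median of 15945 in spt3 cells, 15669 in rad52 cells, 15411 in sac3 cells and 16218 in wild type, against 12537 to 12612 outside chromosome XII.

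The response to age was tested with limma on log2(signal + 1) of all 2423 nuclear windows, with 24 h and 48 h together set against log phase and a Benjamini-Hochberg adjusted p under 0.05 counted as a call. In the 3 mutants, fitted with 1 common response, no unit window was called. Their median log2 change was 0.41, with adjusted p values of 0.133 to 0.159 by limma and unadjusted p values of 0.0456 to 0.0639. The share of all nuclear windows called higher in the 3 mutants was 0%, while 582 windows were higher and 286 lower at an unadjusted p under 0.05. By size of the change the unit windows held places 53 to 81 of 2423, and the 4 windows starting after 470000, with log2 changes of 0.51 to 0.53 and adjusted p values of 0.0690 to 0.0744, held places 10 to 17. With the 48 h libraries alone, which left 2 residual degrees of freedom, limma called 10 of all 2423 nuclear windows higher in the mutants. Of these 4 windows it called 3, with adjusted p values from 0.0482 and of 0.0505 for the one not called, and still no unit window.

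In wild type all 8 unit windows were called higher, with log2 changes between 3.20 and 3.29 (SE 0.315 to 0.323 across the windows, adjusted p = 0.00273). All 4 windows starting after 470000 were called as well, with log2 changes of 2.46 to 2.50 and an adjusted p of 0.00629. The share of all nuclear windows called higher in wild type was 0.537%, or 13 windows, of which 12 belong to the rDNA and the last is the adjoining chrXII:490001-515000. Without the spt3 libraries or without the rad52 libraries the 4 windows were not called (limma, adjusted p = 0.0788 and 0.0726), and the unit windows were called with adjusted p values of 0.0488 and 0.0463. The unit windows held the first 8 places among the 2423 windows by size of the change, and the 4 windows after them held places 9 to 12.

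The difference between the responses, wild type minus mutants, was tested in the same limma fit. All 8 unit windows were called, with log2 differences between 2.79 and 2.89 and adjusted p values of 0.0208 to 0.0209, and they were the only windows called, 0.33% of all. Their unadjusted p values by limma were 5.62e-05 to 6.91e-05. These windows overlap and share reads, yet the Benjamini-Hochberg adjustment counts each as a separate window, which lowers their adjusted p. They therefore do not count as 8 separate results, here or in wild type. The 4 windows starting after 470000 had log2 differences of 1.94 to 1.97 and were not called (adjusted p = 0.0857). The call for the unit windows rested on all 3 mutants being in the fit: the adjusted p by limma was 0.303 without the spt3 libraries, 0.252 without the rad52 libraries and 0.148 without the sac3 libraries, while the median log2 difference stayed between 2.83 and 2.93. It was also lost without the windows touching Ty, LTR, ENA or CUP1, where 1 unit window was left with a log2 difference of 2.88 (limma, adjusted p = 0.104). The fit takes the 24 h and 48 h libraries of a strain as repeats, although they come from 1 strain, which can make these p values too small.

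Exchanging the 3 time points inside each genotype, as an exact permutation test, tested the mean change over the 4 genotypes. The mean log2 change of the median unit window was 1.13, higher in 4 of 4 genotypes, with a two-sided exact p of 0.0123, the smallest that 81 relabellings can give, and 0.0247 after Benjamini-Hochberg adjustment over 4 such tests. Over the 3 mutants alone it was 0.41, higher in 3 of 3, with an exact p and an adjusted p of 0.037, again the smallest possible with 27 relabellings. For the windows starting after 470000 the mean log2 changes were 1.01 over all genotypes and 0.53 over the mutants, with the same p values. The flank windows chrXII:425001-450000 and chrXII:495001-520000, without unit sequence, also stood above log phase in every aged library. The share of all nuclear windows that reach such p values is not given here, so they do not set the rDNA apart. With the left-arm windows as the scale, the 2 aged spt3 libraries and the sac3 library at 48 h stood below log phase in units, while both aged rad52 libraries and the sac3 library at 24 h stayed above it, as given above. A permutation of genotypes with 1 wild type among 4 cannot give a p under 0.25 and was not run.

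Set against wild type at the same time in culture, the unit windows of the mutants were lower by a wide margin. At 48 h the median ratio to wild type was 0.0816 in spt3 cells, 0.116 in rad52 cells and 0.0581 in sac3 cells, and at 24 h it was 0.160, 0.245 and 0.128 in the same order. No nuclear window outside the rDNA was as low in any of these 6 comparisons, the lowest standing at 0.159 at 48 h and 0.256 at 24 h, both in sac3 cells. The order of the mutants, with rad52 highest and sac3 lowest, was that of log phase at both times. Replicative age was not matched in these ratios.

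The second interval of the time course was also set apart by genotype, though this was not tested. Over the unit windows the median ratio of 48 h to 24 h was 1.03 in spt3 cells (1.02 to 1.06), 0.957 in rad52 cells (0.954 to 0.959) and 0.922 in sac3 cells (0.913 to 0.956), against 2.03 in wild type (2.00 to 2.03). Of the 2411 windows outside the rDNA, 76.6% had a lower ratio than the unit windows in spt3 cells, 27.5% in rad52 cells, 21.1% in sac3 cells and 100% in wild type. The mutant values thus lay within the body of the genome. In sac3 cells the windows starting after 470000 went the other way, with a median of 1.18 for 48 h over 24 h.

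Differences between consecutive windows give the signal of single 5 kb slices, with the slice next to a flank anchored on the mean 5 kb signal of the adjoining window. The first slice from chrXII:450001-455000 and the third from chrXII:460001-465000 hold 3215 and 3396 bp of 25S gene, and the second and the fourth, from chrXII:455001-460000 and chrXII:465001-470000, hold the 18S genes with 1447 and 1243 bp of spacer and the 5S genes. In the mutants the ratios of these 4 slices to log phase ranged from 1.26 to 1.36 in spt3 cells, 1.39 to 1.51 in rad52 cells and 1.18 to 1.36 in sac3 cells. In wild type they were 14.3, 13.9, 14.1 and 13.9 at 48 h, and at 24 h 7.12, 6.81, 6.94 and 6.81. Slices rich in 25S sequence and slices with 18S genes and spacer thus had nearly the same ratio.

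The balance within the unit was compared between libraries. The summed signal of the 25S-rich slices over that of the 18S- and spacer-rich slices was 0.924 in spt3 cells, 0.920 in rad52 cells, 0.916 in sac3 cells and 0.917 in wild type at log phase. It was higher in all 8 aged libraries, by a factor between 1.0014 in spt3 cells at 24 h and 1.05 in sac3 cells at 24 h. In wild type the factor was 1.03 at 24 h and 1.02 at 48 h with counting errors of 0.223% and 0.210%. These errors cover counting only, the log phase libraries differed among themselves by more than that, and without replicate libraries the difference was not tested. As whole slices of the reference, sequence outside the units included, the 25S-rich slices had a GC content of 42.6% and 44.9%, the other pair 42.2% and 42.8%. The 25S gene itself has 47.9%, the 18S gene 44.8% and the spacers NTS2-1 and NTS1-2 40.4% and 37.7%. The rDNA in the 2 pairs can thus differ more in GC than the whole slices. Over the 2207 nuclear windows outside chromosome XII, the log2 ratio to log phase ran with GC at a Pearson's r of 0.58 in sac3 cells at 24 h and between -0.05 and 0.44 in the other aged libraries, given as a description since windows overlap and share a library. The 141 of these windows with a GC content of 40% or more had median ratios to log phase above 1 in all 8 aged libraries. They ran from 1.02 in rad52 cells at 48 h to 1.11 in wild type at 24 h. The part of GC content in the balance within the unit, or in the unit window ratios, was not tested.

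**Figure D3:**
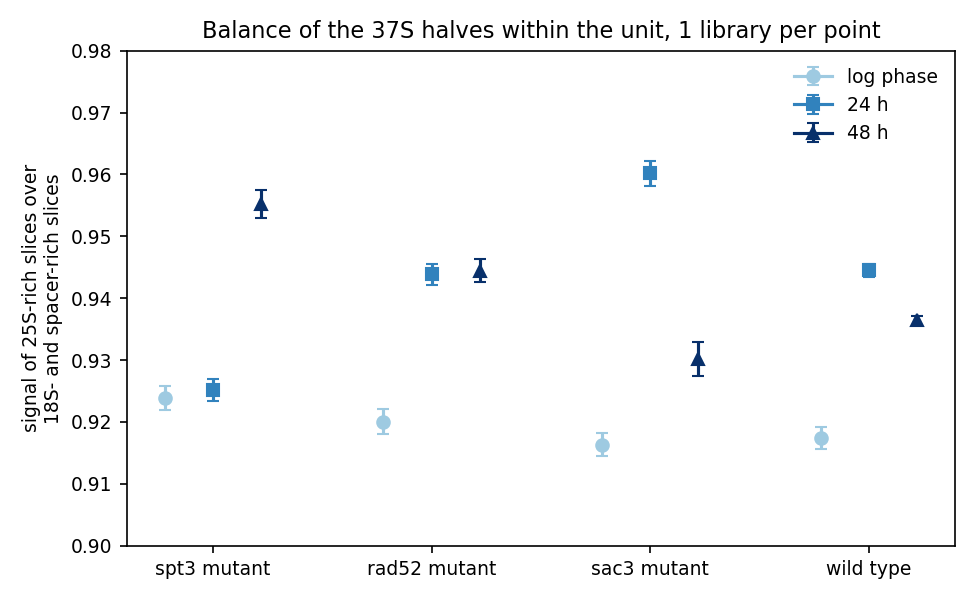
Signal of the 25S-rich slices divided by that of the 18S- and spacer-rich slices of the rDNA units in each library (vertical axis from 0.90 to 0.98, not from 0), with bars of 1 counting error. The log phase points of all 4 genotypes lie between 0.916 and 0.924 and the aged points at 0.925 or higher.

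Anchored on the right flank, the slices to the right of the units separated sequence shared with the rDNA from sequence without it. The slice chrXII:475001-480000, most of it Ty1 element YLRCTy1-1 and with no 75-base sequence of the unit, had a signal of 4161 in wild type at 48 h and 3501 at log phase, a ratio of 1.19. Its neighbours with RDN5-3 and RDN5-4, which sit beside the asparaginase genes ASP3-1 to ASP3-4 in this region, had 13128 and 13970 at 48 h against 3514 and 3793 at log phase, ratios of 3.74 and 3.68. The slice with RDN5-5 and RDN5-6 had 39346 against 6419, a ratio of 6.13. Anchored on the left flank instead, the wild-type ratios at 48 h were 3.46 at RDN5-3, 7.83 in the Ty1 slice and 7.94 at RDN5-4. The low ratio of the Ty1 slice beside its neighbours thus rested on the flank used. Whether reads of other Ty1 elements fall in this slice was not tested. The largest signal, 196554 against 17302 and a ratio of 11.4, was in chrXII:490001-495000 with the 25S stretch, which therefore carries most of the change seen in the 4 windows starting after 470000.

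The size of that signal was set beside a simple count. If each read that is identical to several places of the reference were placed at one of them with equal chance, the 442 read starts of the 25S stretch that reach this slice would receive 209028 in wild type at 48 h, and the slice held 192145 above its flank. Over all 12 libraries the observed excess in this slice was 0.917 to 1.16 times its even share. For RDN5-3 and RDN5-4 in wild type at 48 h, the excess was 8719 and 9561 and the even share 10641 each. Elsewhere the slices with 5S copies departed further. At RDN5-3 the excess ran from -0.298 times its even share (rad52 cells, log phase) to 1.12 (sac3 cells, 24 h). At RDN5-4 it ran from 0.526 (spt3 cells, log phase) to 2.61 (sac3 cells, 48 h). In chrXII:485001-490000 it ran from 1.01 (wild type, 48 h) to 2.31 (sac3 cells, 48 h). The count thus came near the signal of the 25S stretch in every library, but not that of the 5S copies. Reads of the array and reads of these copies cannot be told apart in such slices, so the 4 windows give no separate measure of their own 5S copies.

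In the mutants the Ty1 slice had the lowest ratio of the slices right of the units at both times, with either flank as anchor. The slices with shared sequence had smaller ratios than in wild type. Some of these moved with the flank: at RDN5-3, spt3 cells at 24 h had 1.38 from the right flank and 1.82 from the left. For sac3 cells at 48 h the values were 1.28 and 1.69, while in rad52 cells they were nearly the same. Values from the right flank follow. In rad52 cells every slice right of the units, the Ty1 slice included at 1.49 and 1.42, had a ratio between 1.42 and 1.77. The 25 kb windows of its right arm had medians of 1.41 at 24 h and 1.43 at 48 h, and at most 1.71 and 1.63. The slice with RDN5-5 and RDN5-6, at 1.72 and 1.67, and that with RDN5-3 at 24 h, at 1.77, stood above these. In spt3 cells the Ty1 slice had 1.16 and 1.13 and the slices with 5S copies up to 1.59, and in sac3 cells the Ty1 slice had 1.01 and 1.199 and the others up to 1.58, at 48 h. Over the 9 mutant libraries the excess over the flank lay on either side of 0 at RDN5-3, between a deficit of 256 in rad52 cells at log phase and an excess of 746 in sac3 cells at 24 h. It was above 0 in all 9 at the other slices with shared sequence, between 341 and 1571 at RDN5-4, between 2334 and 5456 at RDN5-5 and RDN5-6 and between 9651 and 25504 at the 25S stretch.

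**Figure D4:**
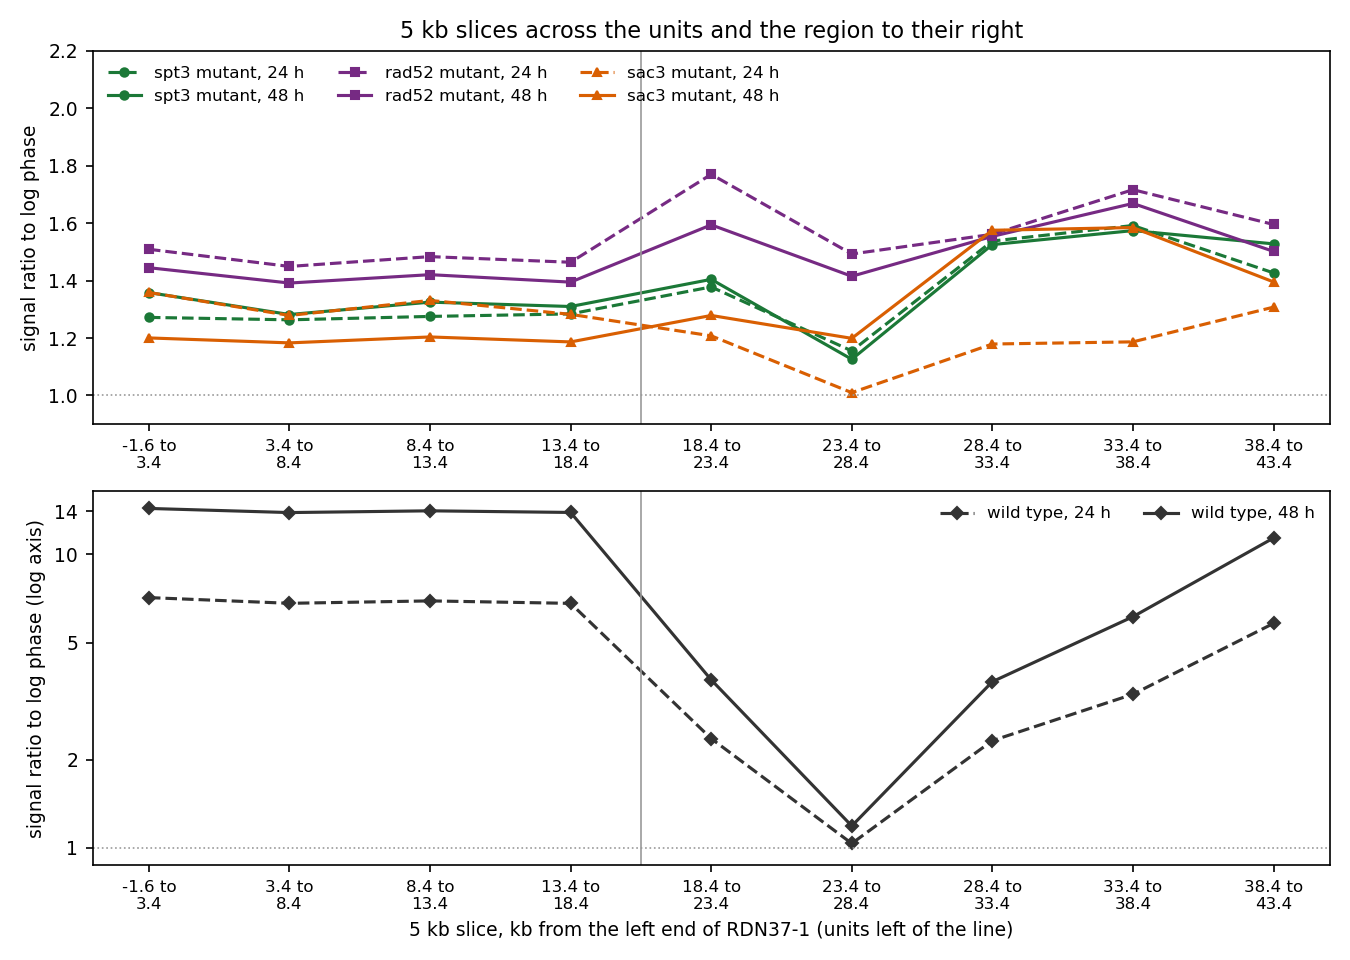
Ratio of the signal at 24 h (dashed) and 48 h (solid) to log phase in 5 kb slices across the reference units (left of the grey line) and the region to their right, for spt3, rad52 and sac3 cells (upper panel, linear axis) and wild type (lower panel, log axis), with slice limits in kb from the left end of RDN37-1. In wild type the ratio is 13.9 to 14.3 over the units at 48 h, 1.19 in the slice without shared sequence and 11.4 in the slice with the 25S stretch. Slices right of the line are anchored on the right flank. With the left flank as anchor, the slice without shared sequence has 7.83 in wild type at 48 h.

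Of 31 genes on a list of RNA polymerase I subunits and factors, the 5S factor PZF1, genes for the fork barrier, silencing and cohesion of the array and the 3 deleted genes, each read through its nearest 25 kb window, none was called higher and none lower by limma in the mutants, in wild type or in the difference. At an unadjusted p under 0.05, 11 were higher and 1 lower in the mutants, 8 were higher and 1 lower in wild type, and 0 were higher and 0 lower in the difference. Over all 2423 windows the same limit was passed by 582 higher and 286 lower in the mutants, 240 and 307 in wild type, and 13 and 32 in the difference. The median log2 change of the list was 0.07 in the mutants and 0.06 in wild type, where all nuclear windows had 0.006 and -0.002. FOB1, whose product blocks replication forks at the barrier in the spacer, had a log2 change of -0.03 in the mutants and -0.11 in wild type, and SIR2, the deacetylase that silences the array, 0.003 in the mutants and -0.03 in wild type. The largest values on the list were those of SPT15, the TATA-binding protein (0.53 in the mutants and 0.57 in wild type, limma adjusted p = 0.0567 and 0.196) and of RRN5, a subunit of the upstream activating factor of RNA polymerase I (0.49 in the mutants and 0.56 in wild type, limma adjusted p = 0.0567 and 0.207). The RRN5 window, chrXII:410001-435000, lies in the left-arm stretch described above.

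By shape alone, few windows followed the rDNA over the 12 libraries. Pearson's r between the log2 signal of a window and that of the median unit window, each centred on its genotype, had a median of -0.04 over 2410 windows and lay at -0.77 and 0.63 at the 5th and the 95th percentile, and only 1 window was above 0.9. That window was chrXII:490001-515000 (r = 0.99, genes RRT15 to YLR179C), which holds the 25S stretch and was called in wild type. The next, chrXII:275001-300000 (RGR1 to EMP70, r = 0.89) and chrIV:805001-830000 (HSP42 to YDR182W-A, r = 0.83), had ratios to log phase of 1.13 and 1.08 in wild type at 48 h. The lowest r values were those of chrIX:95001-120000 (VHS2 to RRT14, -0.91), chrVIII:410001-435000 (LIN1 to DNA2, -0.90) and chrXIII:600001-625000 (ALD2 to YMR181C, -0.90), with wild-type ratios of 0.905, 0.893 and 0.821 at 48 h. The rDNA had by far its widest range in wild type, all windows of a library share its scale, and none of these 5 windows was called by limma.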

How the data were processed

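The authors trimmed single-end 75-base reads with Trim Galore 0.6.6 and mapped them to R64-1-1; the methods name Bowtie 2, whereas the submitters' processing notes list HISAT2 2.1.0. How duplicates and reads with several equal matches were treated is not given in the sources used here, and the placing of such reads sets how rDNA signal is spread. The deposited values are a size factor normalised read signal per 25 kb window every 5 kb, 1 column per library. The methods state that windows with Ty elements, LTRs, mitochondrial DNA, ENA or CUP1 were excluded before normalisation, yet the table holds such windows, 18 of them mitochondrial. Last window ends equal the chromosome lengths of the R64 reference used for annotation and sequences (RefSeq).

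Values were used as deposited. In every library 100% of the values under 30000 were whole multiples of 1 step within a tolerance of 0.1, and this step was taken as 1 read. Since few values are low, the step is an estimate; depths, counting errors and Wilson intervals rest on it, and no count test was run. Units per haploid genome are the signal of chrXII:445001-470000 less its single-copy part, per base of the median nuclear window outside chromosome XII, divided by 9137 bp. The log2(signal + 1) values entered limma 3.58.1 (R 4.3.3) with 4 genotype terms, age in wild type and age in the mutants (6 residual degrees of freedom). The fit was tested on simulated data first. Slices of 5 kb were chained from the left over the units and, a choice made after seeing the values, from the right beyond them, since reads crossing a window edge are counted on both sides. The alternatives were other summaries, scales, pseudocounts, window sets and left-out genotypes. Named are all windows of the rule with their neighbours, the 3 most and 3 least similar windows, and a list of 31 genes. The region, lists and tests were chosen with earlier results of these data known. Other steps used Python 3.11.15, numpy 2.4.6, pandas 2.3.3, statsmodels 0.14.6, biopython 1.88 and matplotlib 3.10.9.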

Additional observations from a re-analysis of the deposited data

Results flagged for a closer look

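The response of the unit windows to age differed between wild type and the mutants: the median log2 difference, wild type minus mutants, was 2.87 over the 8 overlapping windows, called by limma in all 8 (adjusted p = 0.0208 to 0.0209) and in none once any 1 mutant was left out (0.148 to 0.303). Without windows touching Ty, LTR, ENA or CUP1, the 1 unit window left was not called either (limma, adjusted p = 0.104). From 24 h to 48 h the genotypes parted further, with a median ratio of 1.03 for spt3 cells, 0.957 for rad52 cells and 0.922 for sac3 cells, against 2.03 in wild type. This second difference was not tested, since each genotype has 1 library at each time.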

How the results depend on the processing

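Directions of the unit window ratios were the same under the other summaries and with libraries divided by their median window outside XII. The left-arm scale was applied only to units per genome, where it turned some directions, as given below. Dividing libraries by their median window outside XII gave 1.31 (24 h) and 1.35 (48 h) for spt3, 1.48 and 1.42 for rad52, 1.29 (24 h) for sac3, and 6.89 and 14.03 for wild type; the mean of window ratios gave 6.76 and 13.7 for wild type and the window of both units 6.88 and 13.96. For the windows starting after 470000 that division gave 1.46 and 1.503 for spt3, 1.19 (24 h) for sac3, and 4.13 and 7.73 for wild type. For units per genome, the left-arm scale turned the direction for spt3 (0.898 and 0.9504) and for sac3 at 48 h (0.782), and gave 1.26 and 1.23 for rad52, 1.24 for sac3 at 24 h, and 5.49 and 9.97 for wild type. The window 5 kb to the left gave 1.43 for rad52 at 48 h, 1.29992 and 1.204 for sac3, and 7.02 for wild type at 24 h, and without subtraction wild type had 6.97 and 14.2. Chaining slices from the other flank turned the Ty1 slice of sac3 at 48 h to 0.961 and gave 4.16 and 7.83 for it in wild type. By limma, leaving out 1 mutant gave 0 to 0 unit windows called in the difference and 0 to 0 windows in all, 8 to 13 windows in wild type and 0 to 9 in the mutants (9 without sac3). Without windows touching Ty, LTR, ENA or CUP1, 1 unit window was left to test: it was called in wild type (1 of 3 windows), and 0 were called in the difference (adjusted p = 0.104). With 48 h alone 10 windows were called in the mutants and 13 in the difference. Leaving out 1 genotype gave an exact p of 0.037 to 0.037, the smallest possible. Except where values or construction show it, the cause was not tested. No paired analysis by replicate number was possible because the labels give none; the limma fit and the permutation compare times within genotypes. Depth limits none of the unit values, which rest on 476012 or more reads; single libraries do.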
